A study of Mus musculus with 2 samples.

Results

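The genes described here encode the receptors, epithelial cytokines and shared transcription factor through which colon tissue exchanges signals with innate lymphoid cells by IL-22, IL-15, IL-18 and interferon gamma. The 10 members were Il15, Il18, Il22ra1, Il10rb, Il22ra2, Il15ra, Il18r1, Ifngr1, Ifngr2 and Stat3. They were taken by exact gene symbol from the 32285 genes counted, and were chosen with earlier results of these data known. They were followed in nuclei of frozen colon from WT mice and from Ncr1cre+ Hif-1α fl+/fl+ mice (HIF-1α KO), both with chronic colitis after 4 cycles of 3 days of 2% dextran sodium sulfate (DSS) and 4 days of recovery. The mice were 8 to 12 weeks old. In the HIF-1α KO mice, Cre recombinase driven by the Ncr1 promoter deletes the floxed Hif-1α allele in NKp46+ innate lymphoid cells, so the epithelium and stroma that carry most of the counts below were not themselves targeted. Each genotype was measured in 1 library made from a pool of 3 animals. No test between genotypes was therefore possible, and every interval below is a 95% interval that covers counting error only.

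IL-22 is made by group 3 innate lymphoid cells and is received by a pair of chains, IL-22RA1, which is restricted largely to epithelium, and IL-10RB, which is shared with other cytokines of the IL-10 family. The receptor signals through STAT3 and drives antimicrobial and repair genes, while the soluble decoy encoded by Il22ra2 binds IL-22 and keeps it from the receptor. IL-15 is presented on IL-15RA by epithelial and myeloid cells and sustains natural killer cells and group 1 innate lymphoid cells. IL-18 is stored in epithelium, is cut by caspase-1 and acts on lymphoid cells that bear the chain encoded by Il18r1, where it raises interferon gamma. Interferon gamma in turn acts on nearly all cells through its IFNGR1 and IFNGR2 chains.

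After nuclei with 400 to 5000 detected genes and at most 10% mitochondrial counts had been kept, the WT library held 4884 nuclei with a median of 2058.5 unique molecular identifiers (UMIs, counts of captured RNA molecules). The HIF-1α KO library held 4702 nuclei with a median of 4197 UMIs. Levels are given as UMIs per 1000000 UMIs of the group of nuclei named (CPM), and levels of different genes were not compared. The epithelial share of nuclei was 56.7% for WT against 75.6% for HIF-1α KO, and that of absorptive colonocyte-like nuclei 10.5% against 17.6%. These shares leave out 2 clusters that kept no class name, one led by AY036118 and Gpx2 (653 and 98 nuclei, 13.4% and 2.08%) and one led by Taco1 (558 and 391 nuclei, 11.4% and 8.32%). General epithelial marker genes in these 2 clusters had mean log2 ratios of -0.04 and -0.10 to all other nuclei. That was near crypt enterocyte-like nuclei (-0.20) and far from smooth muscle-like nuclei (-1.06). The difference in epithelial share therefore depends on leaving these clusters out, and its size with them included was not tested. With 1 pool per genotype, the genotype and the make-up and depth of the library cannot be told apart. As a scale for free RNA, Muc2, the goblet cell mucin, was at 4428 and 3783 CPM in goblet-like nuclei and still at 422 and 669 CPM in smooth muscle-like nuclei of the WT and HIF-1α KO library. A low level of an epithelial gene outside the epithelium is read beside that background.

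The lymphoid ligands of the axis were not found. Il22 and Ifng each had 0 UMIs in both libraries, where 3 UMIs would have been 0.226 CPM for WT and 0.127 CPM for HIF-1α KO. Ncr1, which encodes NKp46, had 1 UMI in WT and 0 in HIF-1α KO nuclei. Of 14 genes of NKp46+ innate lymphoid cells, 4 were at 0 UMIs in WT and 2 in HIF-1α KO nuclei. The axis was therefore measurable as epithelial cytokines, receptors and response genes only. Hif1a itself, which is deleted only in those lymphoid cells, was at 172 CPM in WT and 199 CPM in HIF-1α KO nuclei over all nuclei.

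The members lie on several chromosomes (GRCm38, GENCODE M21). Il22ra1 (ENSMUSG00000037157) spans 135728172 to 135752140 on the plus strand of chromosome 4. Ifngr1 (ENSMUSG00000020009) spans 19591949 to 19610229 on the plus strand of chromosome 10, with Il22ra2 starting 11768 bases past its end. Il10rb and Ifngr2 share chromosome 16, with 121237 bases between them, and Il10rb overlaps the protein-coding gene Gm21970 on the same strand. Il18 (ENSMUSG00000039217) spans 50554827 to 50581840 on the plus strand of chromosome 9 and overlaps Bco2 and Tex12 on the opposite strand. Promoters of 7 of the 10 members were held in the RefSeq table used (GRCm38.p6). Il10rb, Il22ra2 and Il15 were not matched. The 250 bases before the start site are shown for Il22ra1 (chr4:135727909-135728158) and Ifngr1 (chr10:19591699-19591948), the receptor chains with the largest ratio of absorptive to other nuclei below, and for Il18 (chr9:50554450-50554699), the member with the largest ratio of HIF-1α KO over WT, all on the plus strand and with GC boxes (GGGCGG on either strand) in capitals.
Il22ra1: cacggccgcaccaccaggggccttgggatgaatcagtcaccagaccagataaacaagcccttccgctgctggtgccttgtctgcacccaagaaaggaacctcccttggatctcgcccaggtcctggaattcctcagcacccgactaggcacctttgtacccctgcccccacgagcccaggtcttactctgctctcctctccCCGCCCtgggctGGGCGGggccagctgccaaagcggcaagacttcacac
Ifngr1: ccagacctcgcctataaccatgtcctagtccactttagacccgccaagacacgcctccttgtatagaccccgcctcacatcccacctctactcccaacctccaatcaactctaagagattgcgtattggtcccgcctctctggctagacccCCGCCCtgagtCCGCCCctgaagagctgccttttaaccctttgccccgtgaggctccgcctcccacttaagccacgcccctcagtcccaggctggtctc
Il18: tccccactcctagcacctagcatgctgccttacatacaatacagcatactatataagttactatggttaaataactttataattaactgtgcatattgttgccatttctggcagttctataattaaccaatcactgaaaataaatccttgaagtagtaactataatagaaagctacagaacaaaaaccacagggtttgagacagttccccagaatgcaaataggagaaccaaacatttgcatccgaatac

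Ifngr1 and Il22ra1 each held 2 GC boxes, at G and C shares of 59.2% and 62.4%, whereas the Il18 window had 35.6% G and C and no GC box. A GC box was found in 32.7% of 32851 promoter windows of this length. None of these 3 windows held a STAT site (TTCNNNGAA) or the HIF core (ACGTG), both searched on either strand and found in 7.02% and 16.6% of all windows. Among the windows of the other members, that at the third start site of Il18r1 held 2 STAT sites. These are matches of letters in a window only.

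Ifngr1, Ifngr2 and Il15 were highest in absorptive colonocyte-like nuclei. Clusters had been built without the members, and 15 groups held at least 50 nuclei in each library. Ifngr1, the ligand-binding chain, was at 288 CPM (266 to 312) in WT and 356 CPM (341 to 372) in HIF-1α KO absorptive colonocyte-like nuclei, against 82.8 and 102 CPM in all other nuclei. This was a 3.49-fold higher level in the absorptive nuclei of both libraries, and these nuclei, although 10.5% and 17.6% of the total, held 40.7% and 53.8% of all Ifngr1 UMIs. Within the absorptive nuclei the cluster with Clca4a, Car4 and the interferon-responsive family gene Ifit1bl1 among its leading genes (Car4 cluster) stood above the cluster led by Slc9a3 (Slc9a3 cluster), at 367 and 421 CPM against 211 and 288 CPM. Against crypt base stem-like nuclei, which had 64.4 and 78.1 CPM, the Car4 cluster was 5.70-fold higher in the WT and 5.39-fold higher in the HIF-1α KO library. The Car4 cluster came first and the Slc9a3 cluster second in both libraries, and their ranges over the 2 libraries overlapped neither each other nor that of the next group, the Clca1 goblet-like cluster at 163 and 177 CPM.

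Ifngr2, the signalling chain, followed the same slope at 100 and 122 CPM in absorptive nuclei against 45.1 and 59.6 CPM in the other nuclei, a 2.23-fold and 2.04-fold difference. It was again highest in the Car4 cluster, at 133 and 145 CPM. By the mean of the libraries the Slc9a3 cluster came next at 67.8 and 97.4 CPM. Its range overlapped that of several other groups, among them the immune nuclei at 60.1 and 97.9 CPM. A UMI of both interferon gamma chains was found in 100 of the 515 absorptive nuclei in WT and 341 of 827 in HIF-1α KO, against 1 of 277 and 3 of 130 smooth muscle-like nuclei. These shares depend on depth, and with every nucleus thinned to 1000 UMIs they were 1.36% and 3.63% of absorptive nuclei and 0 of 277 and 0 of 128 smooth muscle-like nuclei.

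Il15, the epithelial and myeloid cytokine for natural killer and group 1 cells, was at 141 CPM (126 to 158) in WT and 186 CPM (175 to 197) in HIF-1α KO absorptive nuclei, against 65.6 and 93.2 CPM elsewhere. Its level stepped up from crypt base stem-like nuclei (39.6 and 81.0 CPM) over crypt enterocyte-like nuclei (76.8 and 101 CPM) to the Slc9a3 cluster (120 and 160 CPM) and the Car4 cluster (163 and 210.5 CPM). Among groups too small for a comparison, blood endothelial-like nuclei held Il15 at 110 and 176 CPM in 79 WT and 33 HIF-1α KO nuclei. Il18, the stored epithelial cytokine, was at 111 and 180 CPM in absorptive and 56.1 and 107 CPM in other nuclei. Unlike Ifngr1, Ifngr2 and Il15, Il18 was not highest in the Car4 cluster (91.0 and 154 CPM). An epithelial cluster led by Gsdmc2 and Gsdmc3 that kept no class name had the highest level, at 143 and 234 CPM, followed by the Slc9a3 cluster at 131 and 208 CPM, and the ranges of these first 2 overlapped. In WT crypt base stem-like nuclei Il18 was at 24.8 CPM, so that the Gsdmc cluster was 5.76-fold higher in the WT and, against 52.4 CPM, 4.46-fold higher in the HIF-1α KO library. Smooth muscle-like nuclei, where Muc2 gives the background, had 34.4 and 35.8 CPM of Il18.

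**Figure D1:**
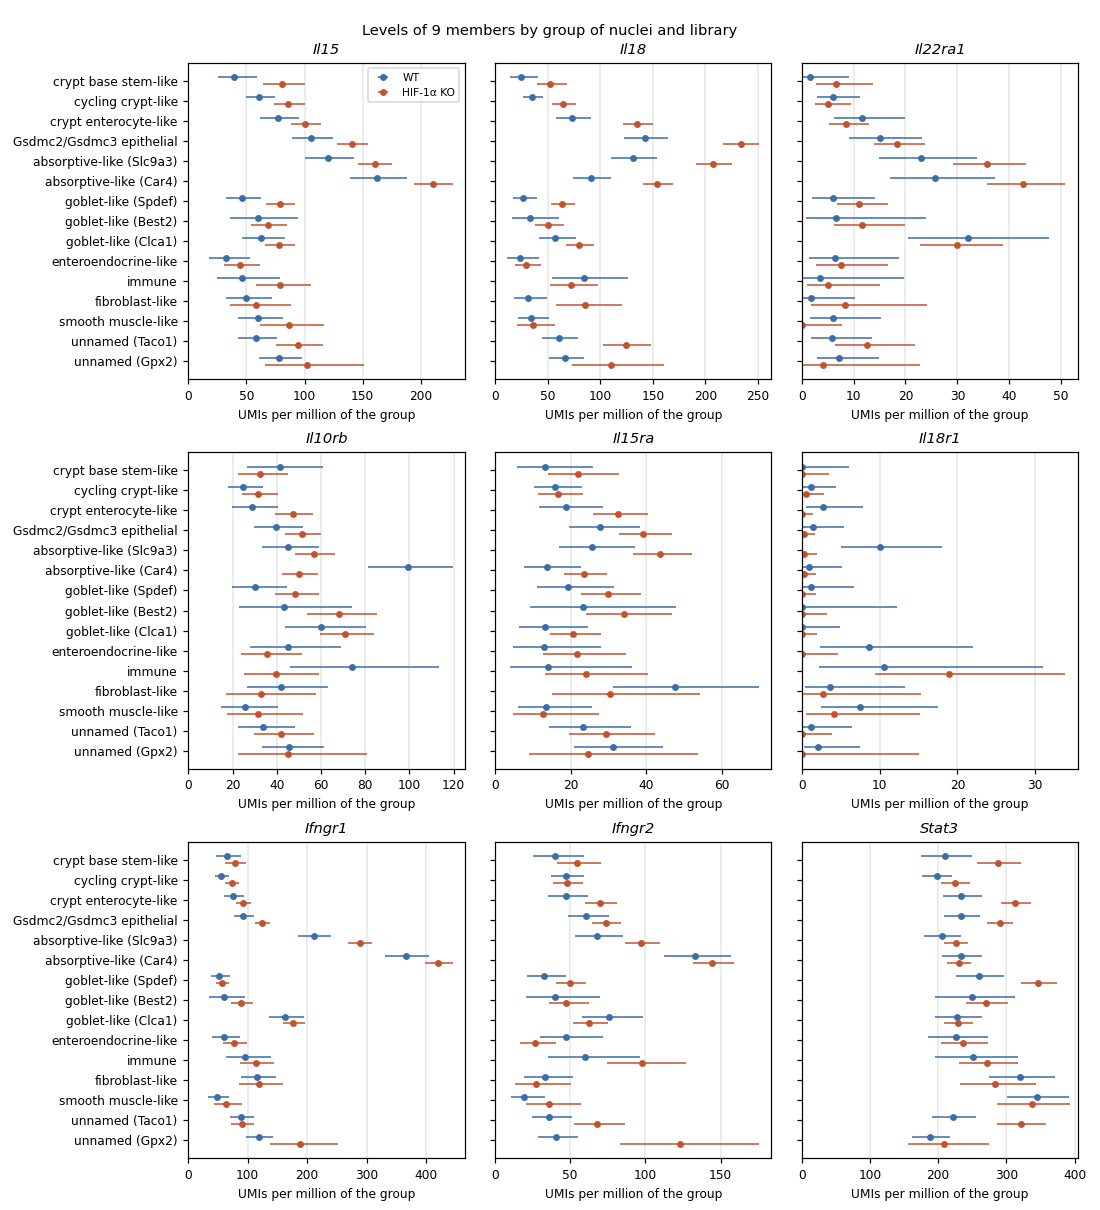
Levels of 9 members in CPM of each group of nuclei (linear axis, own scale per gene) for the WT library (blue) and the HIF-1α KO library (orange), with points for the level and bars for the exact 95% Poisson interval, which covers counting error only. Ifngr1, Ifngr2 and Il15 peak in the Car4 absorptive-like cluster, Il18 in the Gsdmc2/Gsdmc3 cluster, and Stat3 is spread over all 15 groups.

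Il22ra1, the epithelial chain for IL-22, was found at 24.3 CPM (18.2 to 31.8) in WT and 39.3 CPM (34.4 to 44.7) in HIF-1α KO absorptive nuclei, which was 2.69-fold and 3.22-fold the level in all other nuclei. Both absorptive clusters and the Clca1 goblet-like cluster (24 and 57 UMIs, log2 ratio -0.09) led the order, and these 3 could not be told apart by their ranges. Crypt base stem-like nuclei had 1 and 7 UMIs, and smooth muscle-like nuclei 4 and 0 UMIs. Il10rb, its partner, was spread more evenly, from 24.8 and 31.5 CPM in cycling crypt-like nuclei to 60.0 and 71.0 CPM in the Clca1 goblet-like cluster. Only the WT values of the Car4 cluster (99.2 CPM) and of the immune nuclei (74.2 CPM) lay outside these bounds. Both chains were found together in 14 of the 515 absorptive nuclei in WT, 61 of 827 in HIF-1α KO, and in 0 of 277 and 0 of 130 smooth muscle-like nuclei, where 3 nuclei would have been 1.08% and 2.31%. After thinning to 1000 UMIs, 2 and 1 absorptive nuclei held both, too few to compare the libraries at equal depth. The decoy Il22ra2 had 2 UMIs in each library, below the floor of 3.

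Stat3, Il15ra and Il18r1 were not highest in absorptive nuclei by the mean of the libraries. Stat3, the transcription factor of the IL-22 receptor, ranged from 188 and 209 CPM in a cluster that kept no class name (AY036118 and Gpx2 leading) to 344 and 337 CPM in smooth muscle-like nuclei by the mean of the libraries. Its highest level in the HIF-1α KO library alone was 347 CPM in the Spdef goblet-like cluster, against 260 CPM in WT. Fibroblast-like nuclei had 321 and 284 CPM of Stat3, and absorptive nuclei 219 and 228 CPM, or 0.921 and 0.804 times the level in the other nuclei. Il15ra, the presenting chain of IL-15, was highest in fibroblast-like nuclei by the mean of the libraries, at 47.6 and 30.3 CPM, a range that overlapped those of the Slc9a3 and Gsdmc clusters. Il15ra in absorptive nuclei was 19.7 and 33.3 CPM against 21.4 and 28.3 CPM elsewhere. Il18r1, the receptor chain on lymphoid cells, had 61 WT and 18 HIF-1α KO UMIs in all. Of these, 3 and 11 UMIs were in immune nuclei, and within them 3 and 8 lay in the T and innate lymphoid-like subcluster of 8 and 57 nuclei. The immune nuclei differed in make-up between the libraries, with one unnamed subcluster of 76 WT and 2 HIF-1α KO nuclei and another of 2 and 63. The first was led by Lrp1b and Chrm2 and the second by Efna1 and Sec61g, each against the other immune nuclei. No gene of the immune marker lists was among the leading genes of either, so their nuclei may not all be immune cells.

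Members with at least 200 UMIs were also compared with the 10971 genes at that depth over the 30 levels of the 15 groups in both libraries. The genes most like Ifngr1 were Ptprh (Pearson r = 0.94), Sectm1b (0.94) and Gprc5a (0.94). Il18 was most like Cept1 (0.91), Ckmt1 (0.89) and Gpr160 (0.88). For Il15 they were Ethe1 (0.90), Mettl7b (0.90) and Asah1 (0.89). The closest to Il22ra1 were Gm49431 (0.90), Kif13b (0.89) and Vps54 (0.89), and to Ifngr2 they were Mkrn1 (0.88), Myl12b (0.88) and Gm4070 (0.87). Weaker likeness was seen for Il10rb to Lmbrd1 (0.81) and Cd82 (0.76), for Stat3 to Hdac8 (0.74), Auh (0.73) and Mill2 (0.72), and for Il15ra to Abcd4 (0.73), Cpq (0.66) and Emc2 (0.66). Between members, Il15 and Il18 reached 0.82 and Ifngr1 and Ifngr2 0.78, while Stat3 and Ifngr1 were at -0.33. The 30 points share 2 libraries and their depths, and the values are a description of these libraries.

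Between the genotypes, 8 of the 9 members with enough UMIs were at a higher level in the HIF-1α KO library, and Il18r1 was at a lower one. Il18 was at 65.2 CPM (60.9 to 69.7) in WT and 125 CPM (121 to 130) in HIF-1α KO nuclei over all nuclei, 1.92-fold higher (log2 0.94, 0.83 to 1.05). Il22ra1 was at 11.5 CPM (9.78 to 13.5) and 19.0 CPM (17.3 to 20.8), 1.64-fold higher (log2 0.72, 0.45 to 0.99). Il15 was at 78.1 CPM (73.4 to 83.0) and 116 CPM (112 to 121), 1.49-fold higher (log2 0.58, 0.47 to 0.68), which is just short of the 1.5-fold used here to count a gene as higher or lower and past it (log2 0.71) when every nucleus was thinned to 1000 UMIs. The interferon gamma chains were nearly alike in their ratios, with Ifngr1 at 117 and 165 CPM (1.42-fold) and Ifngr2 at 54.2 and 75.1 CPM (1.38-fold). Il15ra was at 21.1 and 29.5 CPM (1.40-fold), Stat3 at 235 and 270 CPM (1.15-fold) and Il10rb at 43.4 and 48.7 CPM (1.12-fold). Of the 9 members that had 50 UMIs or more over both libraries, 2 were at least 1.5-fold higher in the HIF-1α KO library and 1 was lower, beside 13.3% higher and 16.5% lower among all 14391 genes at that depth. The median log2 ratio of the 9 was 0.48, beside -0.01 over all genes.

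The larger share of nuclei counted as epithelial in the HIF-1α KO library is part of these sums. With every group given the same weight in both libraries, the log2 ratio of Il18 was 0.76 and that of Il22ra1 0.37, so that Il22ra1 was then no longer 1.5-fold higher. In bulk sums more cells of a type and more RNA per cell cannot be told apart, and the ratios within groups are therefore given next.

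Il15 and Ifngr1 were higher for HIF-1α KO in 15 of 15 groups, and Il18 in 14 of 15. The exception for Il18 was the immune nuclei (84.8 and 72.2 CPM, log2 -0.23, -0.99 to 0.56), whose make-up differed between the libraries. Ifngr2, Il15ra and Stat3 were higher in 12 of 15 groups each, Il10rb in 9 of 15, and Il22ra1 in 10 of the 14 groups in which both libraries had a UMI. Among the 5361 genes with at least 20 UMIs in every group, 6.98% were higher for HIF-1α KO in 15 of 15 groups and 14.4% in 14 or more. The median of these genes was 9 of 15 groups, the same count as for Il10rb. Il22ra1 and Il15ra did not have 20 UMIs in every group. The groups share the same 2 libraries and their free RNA, and are not independent of each other. Muc2, the scale for free RNA, was itself higher for HIF-1α KO in smooth muscle-like, immune and fibroblast-like nuclei (log2 0.66, 1.01 and 0.43). In these 3 groups Il15 was at 0.53, 0.78 and 0.23, and Ifngr1 at 0.40, 0.25 and 0.04. Il18 was at 0.06, -0.23 and 1.45 there. The median log2 ratio over the groups was 0.74 for Il18 (from -0.23 to 1.45), 0.42 for Il15 (from 0.19 to 1.03) and 0.28 for Ifngr1 (from 0.02 to 0.67). Counting error alone did not reach 0 for Il18 in 10 groups, for Il15 in 8, and for Ifngr1 and Stat3 in 5 each. No share over all genes stands beside these counts.

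**Figure D2:**
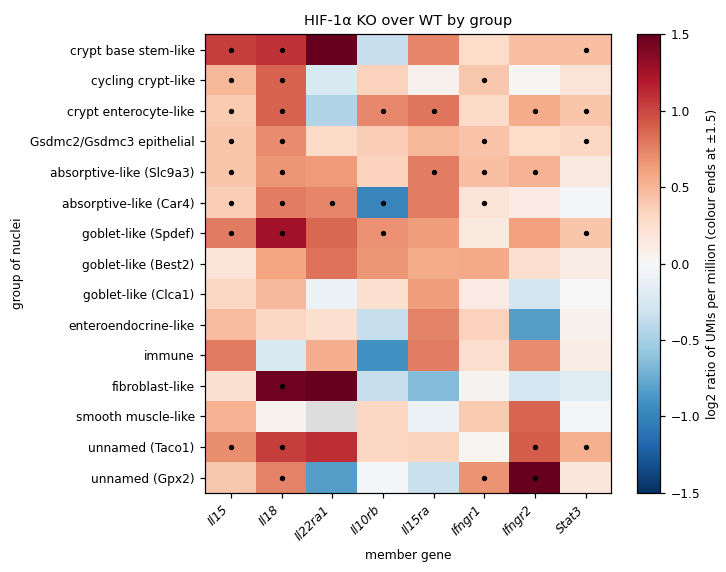
Log2 ratio of the level in the HIF-1α KO over the WT library for 8 members (columns) in 15 groups of nuclei (rows), from blue (lower in the HIF-1α KO library) to red (higher), with grey where a library had no UMI. A dot marks a ratio whose 95% counting interval leaves out 0, as for Il18 in 10 groups and Il15 in 8.

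In absorptive colonocyte-like nuclei Il18 was 1.62-fold higher in the HIF-1α KO library (log2 0.70, 0.50 to 0.91), Il22ra1 1.62-fold (log2 0.69, 0.26 to 1.15) and Il15ra 1.69-fold (log2 0.76, 0.28 to 1.27). These 3 of the 8 members with at least 50 UMIs were past 1.5-fold and 0 were lower by that much, beside 10.2% higher and 15.0% lower among 9210 genes. Il15 (log2 0.40, 0.21 to 0.58), Ifngr1 (log2 0.30, 0.17 to 0.43) and Ifngr2 (log2 0.28, 0.05 to 0.50) were higher by less. Stat3 hardly differed at 219 and 228 CPM (log2 0.06, -0.09 to 0.21). The median log2 ratio over all genes in these nuclei was -0.08. After thinning to 1000 UMIs per nucleus the log2 ratio of Il15ra in these nuclei was 0.14, and over all nuclei it was 0.39.

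Il10rb went the other way in absorptive nuclei, at 72.0 CPM (61.2 to 84.2) in WT and 53.3 CPM (47.6 to 59.5) in HIF-1α KO nuclei. The difference lay in the Car4 cluster, with 108 UMIs in 229 WT nuclei (81.4 to 120 CPM) and 151 UMIs in 405 HIF-1α KO nuclei (42.3 to 58.6 CPM), a log2 ratio of -0.99. In the Slc9a3 cluster it was at 44.9 and 56.8 CPM. The 2 chains of the IL-22 receptor therefore had opposite ratios in the Car4 cluster, where Il22ra1 was at 25.7 and 42.7 CPM (log2 0.73, 0.13 to 1.38).

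**Figure D3:**
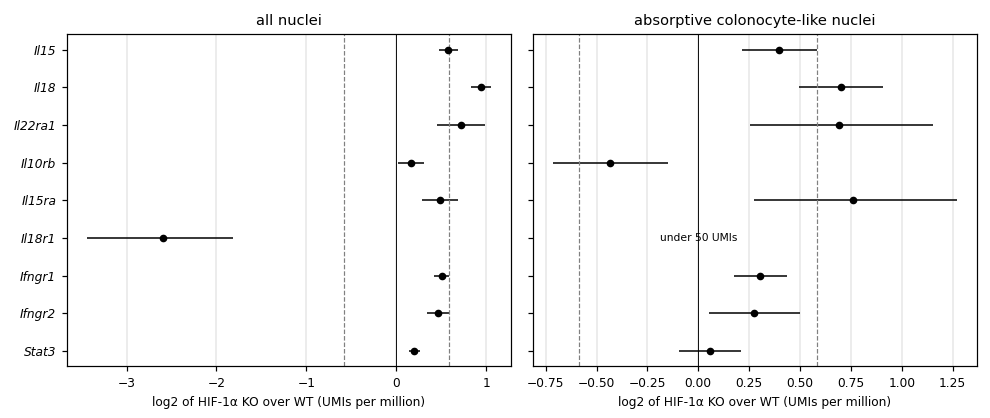
Log2 ratio of the HIF-1α KO over the WT library for 9 members in all nuclei (left) and in absorptive colonocyte-like nuclei (right), with exact 95% counting intervals as bars and dashed lines at 1.5-fold in either direction (the 2 axes differ in scale). Il18 and Il22ra1 lie past 1.5-fold in both panels, and Il10rb lies below 0 in absorptive nuclei only.

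Among the members with enough UMIs, Il18r1 alone was at a lower level in the HIF-1α KO library, at 4.60 CPM (3.52 to 5.91) against 0.763 CPM (0.452 to 1.21), but its 61 WT UMIs were concentrated in few nuclei. Mesothelial-like nuclei held 24 of them in 7 of 17 WT nuclei, at 445 CPM, while the 13 HIF-1α KO nuclei of that cluster had 0 UMIs, where 3 UMIs would have been 62.5 CPM. Another 11 lay in the WT Slc9a3 cluster. Without the mesothelial-like nuclei, 37 WT and 18 HIF-1α KO UMIs remained, with a log2 ratio of -1.87 (-2.77 to -1.03). In immune nuclei, where the receptor is known to act, Il18r1 was at 10.6 and 18.9 CPM from 3 and 11 UMIs, with an interval of the log2 ratio from -1.09 to 3.32.

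Over all nuclei the interferon gamma list had the highest median log2 ratio of the 9 lists of the axis, while in goblet-like nuclei it was at 0.30 and the IL-18 list at 0.58. Of 20 genes at the depth required among the 21 receptor and target genes, 9 were at least 1.5-fold higher in the HIF-1α KO library, 0 were lower by that much and 19 of 20 were on the higher side, with a median log2 ratio of 0.50, beside 13.3% higher and 16.5% lower among all genes. Psmb8, an immunoproteasome subunit, was at 1.89 and 6.18 CPM (3.28-fold). Gbp2, a guanylate-binding protein of cell-autonomous defence, was at 5.51 and 13.3 CPM (2.42-fold), and Irgm2, an immunity-related GTPase, at 6.18 and 14.6 CPM (2.36-fold). Nlrc5, the activator of MHC class I genes, was at 11.3 and 21.0 CPM (1.86-fold). Cxcl10, a chemokine for T cells, had 10 and 52 UMIs (2.92-fold). Igtp, Gbp7 and Gbp3 were also past 1.5-fold, at log2 ratios of 1.11, 0.88 and 0.59. Iigp1 was the gene on the lower side over all nuclei, at 10.6 and 7.88 CPM, but its direction differed by group. It was higher for HIF-1α KO in fibroblast-like (53.1 and 93.6 CPM) and epithelial nuclei (2.71 and 3.33 CPM). It was lower in goblet-like (6.92 and 2.99 CPM) and immune nuclei (17.7 and 8.59 CPM, from 5 UMIs in each library).

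In absorptive nuclei, where the receptor chains were highest, 7 of the 14 genes of this list with enough UMIs were at least 1.5-fold higher and 0 lower, with a median log2 ratio of 0.56, beside 10.2% higher and 15.0% lower among all genes. Gbp2 was there at 9.63 and 27.4 CPM, Nlrc5 at 9.63 and 23.9 CPM, and Irgm2 at 8.26 and 20.8 CPM. Cxcl10 had 1 UMI in WT and 40 UMIs in HIF-1α KO absorptive nuclei. Ifng RNA was at 0 UMIs in both libraries, as given above. Type I and type III interferons also act on many of these genes, so the list is not specific to interferon gamma.

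**Figure D4:**
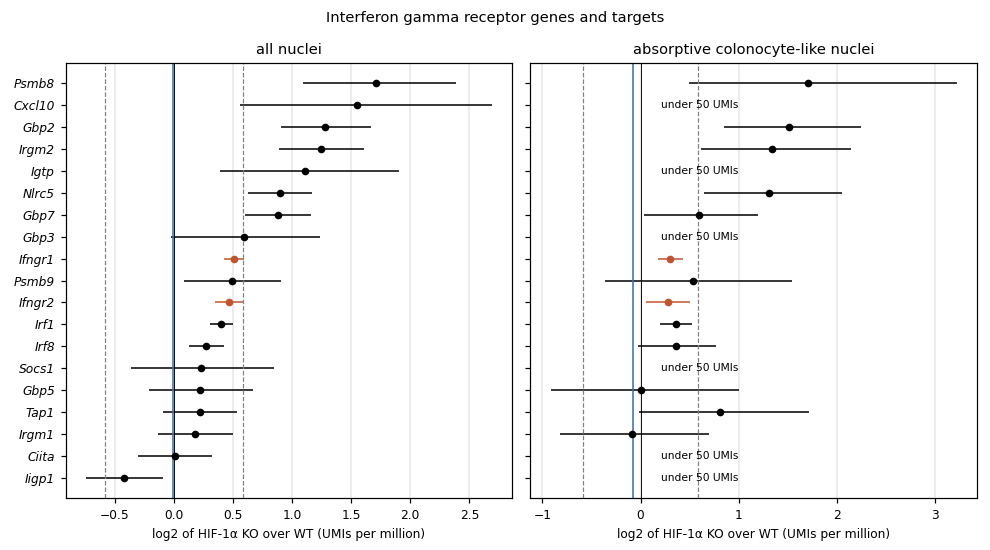
Log2 ratio of the HIF-1α KO over the WT library for 19 of the 20 interferon gamma receptor and target genes with at least 50 UMIs, in all nuclei (left) and absorptive colonocyte-like nuclei (right), with exact 95% counting intervals. The receptor chains are in orange, the blue line is the median of all genes (-0.01 and -0.08), dashed lines mark 1.5-fold, and 18 of the 19 genes drawn lie above 0 on the left.

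The genes around IL-18 had equal numbers in either direction. Of 11 tested genes, 2 (Il18 and Casp1) were at least 1.5-fold higher and 2 (Il18r1 and its partner chain Il18rap) lower, with a median log2 ratio of 0.28, and these shares are near the 13.3% and 16.5% of all genes. Casp1, the protease that cuts IL-18, was at 19.8 and 38.7 CPM over all nuclei (1.96-fold) and at 32.1 and 60.3 CPM in absorptive nuclei. Il18rap had 27 and 26 UMIs, or 2.04 and 1.10 CPM. In the IL-15 list, 0 of 4 tested genes were past 1.5-fold. The receptor chains Il2rb and Il2rg, through which lymphoid cells receive IL-15, were too shallow at 1 and 9 and at 11 and 18 UMIs.

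The targets of IL-22 and STAT3 were divided over all nuclei. Of 14 tested genes, 4 were at least 1.5-fold higher in the HIF-1α KO library and 3 lower, with a median log2 ratio of 0.09, beside 13.3% and 16.5% of all genes. In absorptive nuclei 3 of 9 were higher and 0 lower, with a median of 0.00, beside 10.2% and 15.0%. Nos2, the inducible nitric oxide synthase, which interferon gamma also induces, was at 20.7 and 69.3 CPM (3.34-fold) and in absorptive nuclei at 24.8 and 130 CPM. Duox2, an epithelial oxidase, was at 117 and 192 CPM (1.64-fold). S100a8 and S100a9, calprotectin subunits that neutrophils carry in quantity, had 15 and 123 and 30 and 156 UMIs over all nuclei. Of these, 1 and 65 UMIs of S100a8 and 1 and 92 of S100a9 lay in immune nuclei. In epithelial nuclei S100a8 was at 0.975 and 2.21 CPM (9 and 45 UMIs), and S100a9 at 2.17 and 2.21 CPM. Lower were Reg3b, an antimicrobial lectin, with 37 and 24 UMIs, the acute-phase gene Saa3 at 9.80 and 4.32 CPM, and the kinase gene Pim1 at 23.6 and 15.4 CPM. Saa3 was lower in epithelial nuclei (7.15 and 1.77 CPM) but higher in immune nuclei (45.9 and 92.8 CPM). Of the IL-22 receptor family, 5 genes were tested, with Il22ra1 past 1.5-fold higher and Il10ra, the IL-10 chain, lower at 40 and 39 UMIs.

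Of 15 STAT inhibitors, 0 were higher and 2 lower, which is near the 16.5% of all genes that were lower. In absorptive nuclei 1 of 14 was higher and 4 were lower, beside 10.2% and 15.0%. Cish, induced by STAT5, was at 13.0 and 7.54 CPM, and Socs7 at 53.9 and 35.9 CPM. Of 7 lymphoid cytokines, Tnf (50 and 143 UMIs) was higher and Ltb (43 and 37 UMIs, 3.24 and 1.57 CPM) lower, while Csf2 had 0 UMIs in both libraries and Il17a and Il17f had 0 and 2 UMIs each. The list around IL-12 and IL-23 had 1 gene at the depth required, Stat4, at 4.60 and 4.79 CPM. Tnf had 5 and 5 UMIs in immune nuclei, and 36 and 131 UMIs in epithelial nuclei (3.90 and 6.42 CPM). There were 160 WT against 278 HIF-1α KO immune nuclei, and their part in the ratios of Tnf, Ltb and Il10ra was not tested. These totals include the unnamed subclusters described above.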

How the data were processed

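Single-nucleus RNA libraries of colon (Chromium 3′ chemistry) were measured for 1 WT and 1 HIF-1α KO pool. The authors deposited raw counts of UMIs per gene and barcode, made with Cell Ranger 7.0.1 on mm10 per the labels, with no normalization. The depth after filtering was 13259430 UMIs in the WT and 23605502 UMIs in the HIF-1α KO library. The libraries shared 3 barcodes. Deeper nuclei show more genes, so shares of nuclei with a UMI were also taken after thinning to 1000 UMIs, which left out 0 and 63 nuclei.

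Nuclei were integrated and clustered with Seurat 5.3.0 (R 4.3.3) on 2000 variable features less the members and listed pathway genes, with 30 principal components and a resolution of 1. No doublet caller was applied. Clusters were called after marker lists ("-like") where at least 3 markers reached a log2 ratio of 1 over other nuclei in 10% of nuclei, with a marker among the 10 leading genes. The data had been seen when these thresholds were chosen. Counts were summed per group, given as CPM with exact 95% Poisson intervals, and compared as log2 ratios with exact conditional intervals, in groups of at least 50 nuclei per library. Genes were counted as higher or lower at 1.5-fold, given 50 UMIs in the libraries together. The members and lists were chosen with earlier results of these data known. Named genes are the members, listed genes past the fold or without a UMI, the 3 genes most like each member over log2(CPM + 10), class markers and the scale gene Muc2. Iigp1, Il2rb, Il2rg, Il17a, Il17f, Stat4 and Hif1a were named after their values were seen.

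The ratio calculation was tested on simulated Poisson counts. edgeR 4.0.16 and DESeq2 1.42.0 gave alternative scaling factors only. Other choices tried were all barcodes, equal weight per nucleus, leaving out the top 5% of nuclei by UMIs, resolutions of 0.5 and 2, and assignment by own marker score. Some genes named by the rule above are not reported here.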

Additional observations from a re-analysis of the deposited data

Results flagged for a closer look

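Il10rb had opposite ratios in different epithelial groups. In the Car4 absorptive-like cluster its log2 ratio of HIF-1α KO over WT was -0.99 (-1.36 to -0.62), while in crypt enterocyte-like nuclei it was 0.72 (0.15 to 1.33) and in the Spdef goblet-like cluster 0.68 (0.03 to 1.38). With 1 library per genotype the difference between these groups was not tested. The intervals cover counting error only.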

How the results depend on the processing

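No paired analysis was possible because each genotype has 1 library, and for the same reason no replicate could be left out. Over 9 other settings for all nuclei, the 9 members with enough UMIs kept their direction, with log2 ratios from 0.76 to 0.97 for Il18, from 0.37 to 0.79 for Il22ra1, from 0.48 to 0.71 for Il15 and from 0.33 to 0.53 for Ifngr1. With every nucleus thinned to 1000 UMIs, the log2 ratio was 0.71 for Il15, 0.40 for Ifngr1 and -1.59 for Il18r1. With nuclei weighted equally it was -1.48 for Il18r1. With the same composition of groups in both libraries, an alternative chosen after seeing the data, it was 0.37 for Il22ra1, 0.76 for Il18, -1.75 for Il18r1 and 0.33 for Ifngr1, so Il22ra1 was then under 1.5-fold. Also not planned beforehand were leaving out the unnamed clusters led by AY036118 and by Taco1, leaving out mesothelial-like nuclei, and taking each absorptive cluster alone. Without a minimum of UMIs, 3577 genes were higher and 4644 lower by 1.5-fold, and 2 members were lower, since Il22ra2 with 2 UMIs per library then counts. At 2-fold, 835 genes were higher and 1038 lower, beside 1912 and 2377 at 1.5-fold. In absorptive nuclei Il15ra ran from 0.14 to 1.51 and Il10rb from -0.99 to 0.34 over 10 settings, with 0.14 for Il15ra after thinning and the highest Il10rb value in the Slc9a3 cluster alone. TMM and DESeq2 factors raised every log2 ratio in these nuclei by 0.15.

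Il22, Ifng and Ncr1 lie under the floor of 3 UMIs, and too few lymphoid nuclei and too little RNA per nucleus cannot be told apart. With 1 pool of 3 animals per genotype, no interval here covers differences between animals. Free RNA, the depth of the libraries and their share of nuclei counted as epithelial differ between the genotypes and cannot be told apart from them.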
